A study of Drosophila melanogaster with 2 samples.

Results

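The hairpin mir-282 was followed in the small RNA of the larval and the adult central nervous system (CNS) of the fly Drosophila melanogaster. It is 1 of the 174 miRNA hairpins in the deposited tables, found by its name, and it was selected on its larval over adult ratio of total reads. Its total level and ratio are therefore given as a description and are not tested. Each stage has 1 library, made from about 100 pooled animals of the strain w[1118] Iso31 grown at 24 °C, and males and females were taken in about equal numbers. The larval library came from larvae of the third instar, from which the ventral ganglion was explanted along with the optic lobes. The adult library came from brains with their antennal lobes, explanted from flies 3 to 5 days after eclosion. Stage and dissection change together and cannot be told apart, and neither can fewer cells that make a miRNA and less of it per cell.

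A miRNA is cut from a hairpin transcript, and each arm of the hairpin can give a mature strand of about 22 bases, of which one is usually kept by an Argonaute protein and pairs with target mRNAs. The mature ends are not always cut at the same base, so sequencing finds an annotated form and variants of it. In Drosophila, loss of miR-282 has been reported to lower viability, lifespan and egg production, and rutabaga, an adenylate cyclase needed for olfactory memory, has been described as a target.

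In the annotation of assembly BDGP6 (Ensembl release 115) the mir-282 hairpin lies on chromosome 3L, positions 3251022 to 3251118, plus strand, and is 97 bases long. It sits on the same strand as the long noncoding RNA gene lncRNA:CR43626 (3249340 to 3254504), within the span of 2 of its 3 transcripts. The remaining transcript, lncRNA:CR43626-RC, ends 19 bases before the hairpin. The annotated 5' arm covers 3251038 to 3251061 and the 3' arm 3251081 to 3251102, with 19 bases between them. The 5' arm is thus 24 bases long and the 3' arm 22. Of 485 mature arms in this annotation 248 have 22 bases, and 9.90% have 24 or more. The hairpin stands alone: the nearest other miRNA on 3L is mir-955, 47936 bases away, which had 1 larval and 4 adult reads. The nearest flanking genes outside the host are CG43389, 1977 bases upstream, and ckd, 6759 bases downstream.

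The libraries held 822500 larval and 1665159 adult hairpin reads, so a single read was worth 1.22 reads per 1000000 hairpin reads (RPM) in the former and 0.601 RPM in the latter. There are no replicates, and the intervals below are exact 95% intervals unless named otherwise, which cover counting error only. Reads carry no molecular identifiers, so copies of a single molecule were not told apart. The neuronal miRNA mir-124 was present in both, at 2564 and 1603 RPM over the whole hairpin. Its 5' arm had 1312 larval and 369 adult reads and its 3' arm 619 and 1663. The total therefore does not give the direction of each arm. Of the markers of neighbouring tissues, those of muscle (mir-1 and mir-133) summed to 565 larval and 13143 adult RPM, and the photoreceptor marker mir-210 stood at 99.7 and 17586 RPM. Most of the muscle sum was mir-133, with 518 and 13002 RPM, while mir-1 had 47.4 and 141 RPM. The fat body list (4 of 6 hairpins listed), the testis list (6 of 8) and the ovary list (2 of 2) held at most 4 larval and 40 adult reads each in sum. The muscle sum and mir-210 were higher in the adult library. In the ovary list mir-318 held 4 larval and 38 adult reads. The fat body and testis hairpins had too few reads to compare. Whether such tissues bear on the reads of mir-282 was not tested.

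mir-282 was read 1020 times from the larval CNS and 130 times from the adult CNS. That is 1240 RPM (1165 to 1319) in the larva and 78.1 RPM (65.2 to 92.7) in the adult. The larval level was 15.9 times the adult one (13.2 to 19.2), a log2 ratio of -3.98 for adult over larval. As a share of all hairpin reads this was 0.124% (0.117 to 0.132) for the larva and 0.00781% (0.00652 to 0.00927) for the adult. The authors' deposited table gives the same signed fold change of 15.9, with a Z statistic of 32.0 and a p-value listed as 0, before and after Bonferroni correction. In the authors' deposited table that statistic is the 16th highest among 69 hairpins with a larval excess. Kal's Z-test compares the proportion of reads between 2 libraries and includes no spread between animals.

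By level mir-282 held place 43 of 139 listed hairpins in the larval library and place 85 of 169 in the adult library. It had 9.81 times the median number of reads per listed hairpin in the larva (104), and in the adult it was itself at the median of 130 reads. Among the 114 hairpins compared, those with at least 20 reads over both libraries and 10 RPM in either, it lost 42 places. Only mir-92a (69), mir-92b (63), mir-iab-4 and mir-275 (49 each) lost more.

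**Figure D1:**
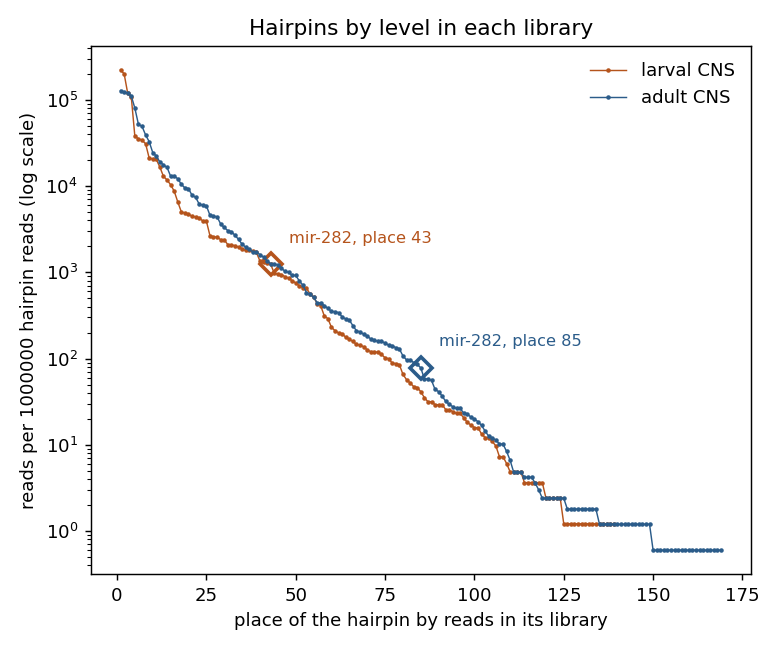
Level of each listed hairpin in reads per 1000000 hairpin reads (log scale) against its place by reads, with 1 line per library and a diamond on mir-282. The diamond lies at place 43 and 1240 RPM in the larval library and at place 85 and 78.1 RPM in the adult one.

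The hairpins next to it in the larval library were mir-252 (1290 RPM), mir-9b (1335 RPM) and mir-284 (1350 RPM) above. All 3 intervals overlapped that of mir-282, so their order is not resolved by counting. Below it came mir-990 (976 RPM), mir-970 (950 RPM) and mir-33, a regulator of lipid metabolism (943 RPM), whose intervals did not reach it. These hairpins of similar larval level had gone different ways in the adult library. mir-284, mir-252, mir-990 and mir-970 were higher there, mir-33 met neither call, and only mir-9b shared the larval excess. A call here means a ratio of at least 2 whose interval excludes 1. In the adult library the neighbours were mir-87 (85.9 RPM), mir-1013 (90.1) and mir-988 (96.1) above, and mir-1008 and mir-308 (58.3 each) and mir-2489 (55.9) below, and all 6 intervals overlapped that of mir-282. Of these, only mir-1008, a mirtron made by splicing, was called higher in the larval library, 2.71-fold (2.07 to 3.57), with 130 larval and 97 adult reads. That call rests on reads outside the annotated arms, 128 larval and 85 adult. Its mature reads were 2 and 12, with the larger number in the adult library.

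Of the 114 hairpins compared, 28 were called higher in the larval library (24.6%), 46 in the adult library (40.4%) and 40 neither. When the 10 most abundant hairpins of each library were kept out of the total, the split was 41 larval and 40 adult calls. A larval ratio of at least 10 was found in 9 of the 114 (7.89%). That count holds mir-6-1, mir-6-2 and mir-6-3 separately, although these copies share reads and had 3 adult reads each. mir-282 had the fifth largest larval ratio, and it was chosen for it. Ahead of it were mir-92b, mir-iab-4, mir-92a and mir-275. mir-275 had 5397 larval and 401 adult reads, a ratio of 27.2 (24.6 to 30.2) that lay above the interval of mir-282.

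The hairpins closest to mir-282 in log2 ratio were mir-9c, at a distance of 0.10, then mir-6-1 (0.35), mir-6-3 (0.42), mir-6-2 (0.49) and mir-275 (0.78). This likeness rests on 2 libraries, 1 per stage. mir-9c, of the miR-9 family, had 9680 larval and 1329 adult reads and a ratio of 14.7 (13.9 to 15.6), which falls inside the interval of mir-282. The order of the pair is thus not resolved. The mir-6 copies, which belong to an early embryonic cluster, had 19 to 21 larval and 3 adult reads each. They share reads and amount to 1 uncertain measurement, and their intervals, from 3.77 to 74.2 over the copies, hold that of mir-282. The mature reads of mir-9c were on the 5' arm, as most were in mir-282, at 99.98% in the larva and 100% in the adult, but 82.8% and 52.3% had the annotated form, against 4.25% and 1.61% in mir-282. The mir-6 copies had 0% on the 5' arm, and mir-275 had 15.1% and 9.92%.

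**Figure D2:**
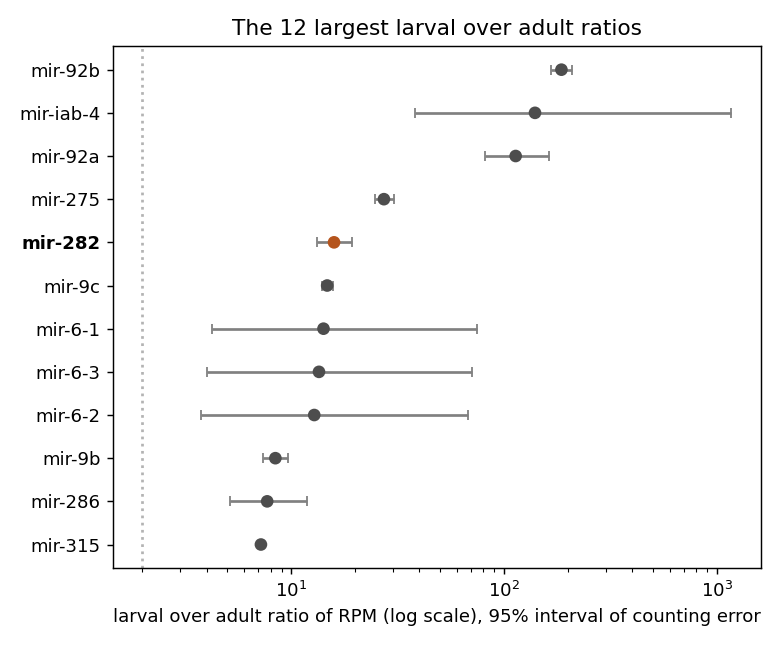
Larval over adult ratio of RPM (log scale) for the 12 hairpins with the largest values, with exact 95% intervals of counting error as bars and the smallest ratio called, 2, as a dotted line. mir-282 lies at 15.9, beside mir-9c at 14.7 and below mir-275 at 27.2.

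The larval excess was present in each part of the hairpin. The 5' arm had 941 larval and 121 adult reads, or 1144 RPM (1072 to 1220) and 72.7 RPM (60.3 to 86.8), a ratio of 15.7 (13.02 to 19.2). The 3' arm had 47 and 3 reads, or 57.1 RPM (42.0 to 76.0) and 1.802 RPM (0.372 to 5.27), a ratio of 31.7 (10.2 to 159). Reads of the hairpin in neither annotated arm numbered 32 and 6, or 38.9 RPM (26.6 to 54.9) and 3.60 RPM (1.32 to 7.84), a ratio of 10.8 (4.45 to 31.6). These values add up to the total on which mir-282 was selected, so they describe how its excess is spread over the hairpin and are no further support for it. The 3 ratios have overlapping intervals, so a difference in ratio between the parts was not detectable at this depth. In both tables every mature read of mir-282 fitted this hairpin only, which was not so for 15 hairpins of the tables.

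**Figure D3:**
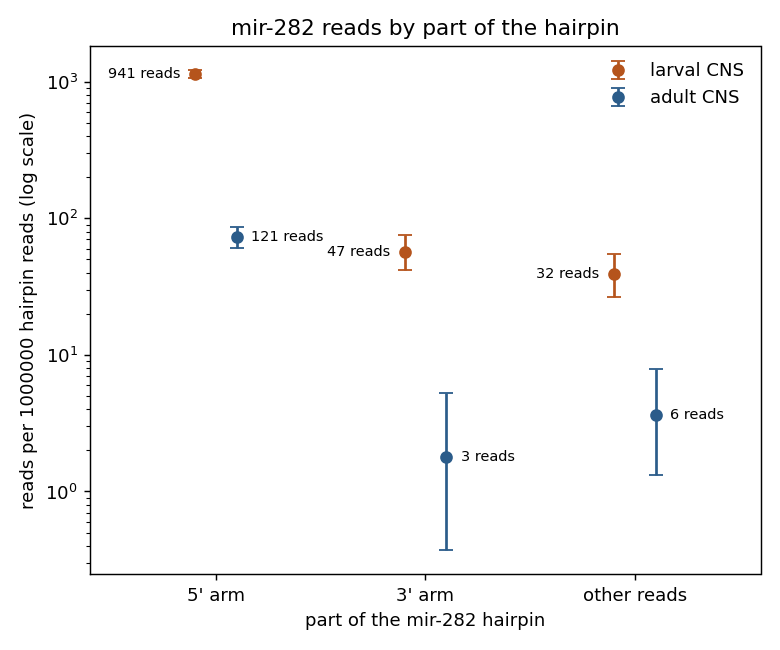
Reads per 1000000 hairpin reads (log scale) of the 5' arm, the 3' arm and the other reads of mir-282 in the larval and the adult library, with exact 95% intervals of counting error as bars and read counts beside the points. Each part is lower in the adult library, and the 5' arm leads at both stages with 941 and 121 reads.

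The 5' arm was the major strand at both stages. Of the mature reads 95.2% (93.7 to 96.5) were on the 5' arm in the larval library, 941 of 988, and 97.6% (93.1 to 99.5) in the adult library, 121 of 124. The share was 2.34 percentage points higher in the adult, with a 95% interval of the difference (Newcombe) of -2.26 to 4.53, so a change of arm was not detectable. Over hairpins with at least 20 mature reads the median 5' share was 25.0% for the larva and 14.1% for the adult, and 24 of 89 and 21 of 101 hairpins had a higher share than mir-282. A share that moved by at least 10 points with intervals apart was found in 17 of 76 hairpins (22.4%), and mir-282 was not among them. From 95.2% it could have met this rule only by a fall.

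None of the reads on this major arm had the annotated form. The exact count of the 5' arm was 0 of 941 reads in the larval library, which allows a share of up to 0.319% by the limit of 3 reads, and 0 of 121 in the adult library, which allows up to 2.48% by that limit. The upper ends of the exact intervals are 0.391% and 3.00%. Every 5' read of mir-282 was thus counted as a variant at both stages. The median exact share over 5' arms with at least 20 reads was 58.8% for the larva and 46.3% for the adult. In the larval library 5 of 61 such arms had no exact read, and mir-282 had the most reads among them, followed by mir-1010 with 122, mir-276a and mir-276b with 67 each and mir-1012 with 33. None of the 5' reads of mir-276a and mir-276b was unique to 1 hairpin, so this pair is 1 measurement. In the adult library there were 6 of 68, the same 5 and mir-4952. Here mir-1012 led with 233 reads and mir-282 came next. An exact share of the 5' arm that moved by at least 10 points with intervals apart was found in 15 of 57 hairpins (26.3%), and mir-282 stayed at 0. From a larval share of 0 only a rise was possible. The sources used here do not give the annotation release behind the counts, and the deposited counts do not say at which end the reads differed from it.

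The minor arm was unlike this. Of its 47 larval reads 42 had the annotated form, 89.4% (76.9 to 96.5), above the 74.6% median of 3' arms in that library. In the adult library it was 2 of 3 reads, an interval of 9.43% to 99.2% that leaves the share unknown. All exact mature reads of mir-282, 42 larval and 2 adult, therefore came from the 3' arm. With exact reads alone the 3' arm would be the only one seen, although it held 47 of 988 and 3 of 124 mature reads.

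Over both arms the exact share was 4.25% (3.08 to 5.70) among larval reads and 1.61% (0.196 to 5.70) among adult reads. Among hairpins with at least 20 mature reads these were the third lowest of 89 and the lowest of 101, where the medians were 65.3% and 55.6%. In the adult library the next were mir-210 (1.84%), mir-307a (2.28%), mir-283 (3.40%), mir-2b-1 (3.72%) and mir-87 (5.06%). All 5 lay inside the interval of mir-282, so its place as the lowest is not resolved. The larval hairpins below it were mir-307a (2.17%, 46 mature reads) and mir-281-1 (3 exact of 75 mature reads). Next above it, mir-283 (5.04%) and mir-2b-1 (5.61%) lay inside the larval interval of mir-282, so its larval place is not resolved either. The adult share was 2.64 points lower than the larval one, with a difference of -2.64 and an interval of -4.50 to 1.58, so a change was not detectable. An exact share moved by at least 10 points with intervals apart in 27 of 86 hairpins (31.4%), and that of mir-282 did not. A fall of that size was not possible from 4.25%.

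**Figure D4:**
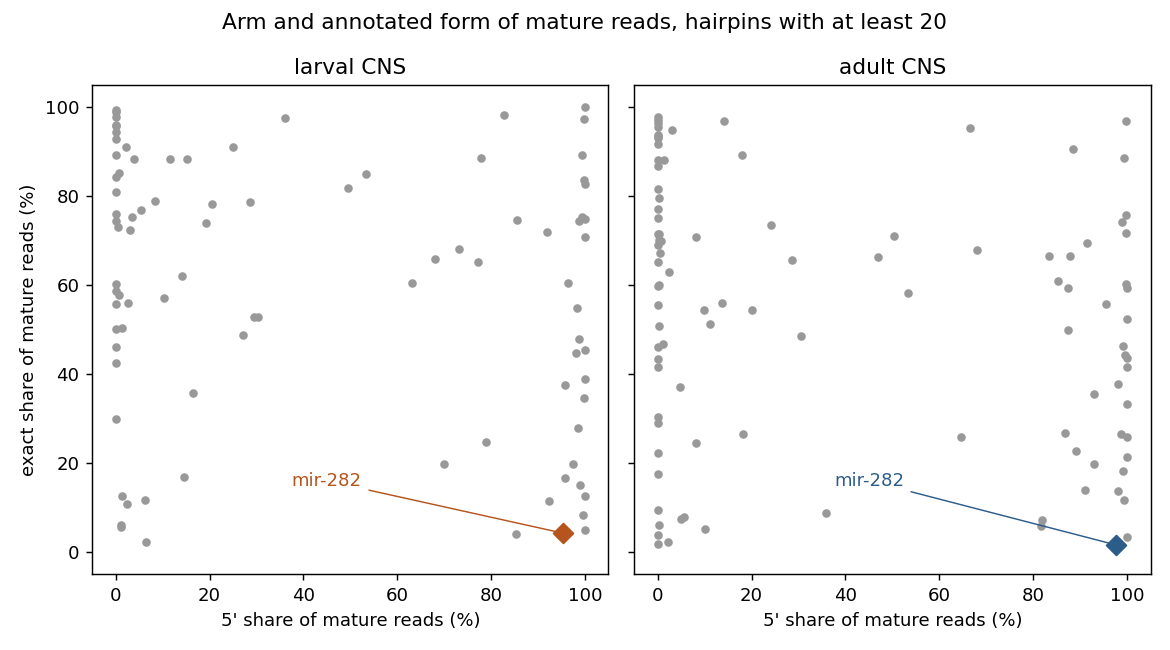
Exact share of mature reads against the 5' share of mature reads, both in percent, for hairpins with at least 20 mature reads, with the larval library on the left and the adult one on the right. Each point is a hairpin, and mir-282, the diamond, lies at the lower right in both, at 95.2% and 4.25% in the larva and 97.6% and 1.61% in the adult.

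Reads outside the annotated arms made up 3.14% of the hairpin reads (2.16 to 4.40; 32 of 1020) in the larval library and 4.62% (1.71 to 9.78; 6 of 130) in the adult library. The difference was 1.48 points, with an interval of -1.31 to 6.65. The medians over hairpins with at least 20 reads were 0.797% and 1.45%. mir-282 was above 71 of the other 93 hairpins among larval reads and 69 of the other 104 among adult reads. The share moved by at least 10 points with intervals apart in 8 of 89 hairpins (8.99%), and mir-282 was not one of them. Its larval share of 3.14% left room only for a rise of that size.

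Lists of miRNAs with roles in lifespan, in olfactory memory, and in progenitors and growth were set beside mir-282 by their own ratios. The lists were chosen with earlier results of these data known. Their counts of calls, here and below, are therefore a description and no test of enrichment. The lifespan list had all 6 members called higher in the adult library, against 40.4% of the compared hairpins, with log2 ratios of adult over larval between 2.13 and 6.29. Its median log2 ratio was 3.52, where that of all compared hairpins was 0.47. mir-34, which protects the ageing brain, had 2670 larval and 22212 adult RPM, and mir-277, which acts on amino acid catabolism, 312 and 24463 RPM. let-7, a timer of metamorphosis, stood at 562 and 9519 RPM. mir-14, a regulator of cell survival and fat, had a ratio of adult over larval of 9.14 (8.93 to 9.36), and mir-100 had the smallest ratio, 4.42 (3.15 to 6.35). The members are not independent, since let-7, mir-100 and mir-125 come from 1 complex and mir-34 and mir-277 from 1 cluster. mir-282 was selected for its larval excess, so its log2 ratio of -3.98, on the opposite side of every member, is a description only.

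The olfactory memory list had 5 of its 6 members compared, with a median log2 ratio of -0.76. Of these 5, mir-9c and mir-305 were called higher in the larval library, where 24.6% of all compared hairpins were. mir-305 had 20345 and 5995 RPM and a ratio of 3.39 (3.31 to 3.48). That excess rests mainly on its 3' arm, with 11566 larval and 1683 adult reads. The 5' arm of mir-305 had 5037 and 7466 reads, and its share of mature reads went from 30.3% to 81.6%. mir-276a met neither call, with a larval over adult ratio of 1.65 (1.64 to 1.66), and neither did mir-31a, with 1.70 (1.63 to 1.77). mir-980 had 11 and 17 reads and a ratio of 1.31 whose interval, 0.555 to 2.96, includes 1. mir-974 had 1 and 4 reads, under the floor. When the 10 most abundant hairpins were kept out of the total, 4 of the 5 were called higher in the larval library. Over all compared hairpins it was then 41 of 114, so the counts lean on the scaling.

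The progenitor and growth list had 7 of 8 members called higher in the larval library, against 24.6% of the compared hairpins, and a median log2 ratio of -2.50. The larval level of mir-282 was within the larval range of this list, 87.5 RPM (mir-79) to 118579 RPM (mir-315). Its adult level was within the adult range, 21.0 RPM (mir-92a) to 51936 RPM (bantam). Ranges this wide do not mark a likeness to the list. mir-9b, 2 places above mir-282 in the larval library, had 1335 and 159 RPM, with a ratio of 8.42 (7.35 to 9.67) that was below the interval of mir-282. mir-92a, tied to neural stem cells, had 2382 and 21.0 RPM and a ratio of 113 (81.2 to 163), above it. mir-315, an activator of the Wingless pathway, was 7.20-fold (7.11 to 7.30) and mir-9a, which limits sensory organ precursors, 4.45-fold higher in the larval library (4.20 to 4.72). bantam, a promoter of growth, met neither call, with a log2 ratio of 0.47. The members are not independent of each other, since mir-9b, mir-79 and mir-306 lie in 1 cluster and mir-92a and mir-92b in 1 gene.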

How the data were processed

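Library preparation used the TruSeq Small RNA kit of Illumina, per the labels' protocols. For each library the authors deposited counts of reads on annotated miRNA hairpins, divided by arm, by agreement with the annotated mature form (exact) and by whether a read fitted 1 hairpin only (unique), per the file headers. The submitters' processing notes name CASAVA 1.8 and build dm3. For the aligner, the counting program and the annotation release, none is named in the sources used here. A comparison table that the authors deposited holds a signed fold change and a Z statistic, both used as scores of that table, and the p-value of Kal's Z-test.

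From the counts, RPM of hairpin reads, Clopper-Pearson intervals of shares, exact conditional binomial intervals of ratios and Newcombe intervals of differences were computed (Python 3.11.15, scipy 1.17.1, statsmodels 0.14.6). A count of 0 was read as allowing up to 3 reads. Log2 ratios had 0.5 reads added to each count. With 1 library per stage no p-value was computed, and calls compare these libraries, not the stages in general. Alternatives were TMM factors (edgeR 4.0.16), size factors (DESeq2 1.42.0), a total without the 10 most abundant hairpins, other read classes, no floor, and other minimum ratios or added reads.

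mir-282 and the lists were chosen with earlier results of these data known. Hairpins were named by a rule: 3 above and 3 below in rank per library, the 5 closest in log2 ratio, the nearest miRNA on the chromosome and the list members. The others named were chosen after their values were seen. Positions come from the BDGP6 annotation, matched by name, and were not combined with dm3 positions. No mature sequence was used here, so seeds were not compared, and the authors' candidate hairpins were not used.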

Additional observations from a re-analysis of the deposited data

How the results depend on the processing

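mir-282 was selected on its ratio, so its values under the alternatives are a description. It was higher in the larval library in each of them, and it had the fifth largest larval ratio in all of them except with no floor, where it was the 6th. Its ratio of 15.9 was between 15.4 and 17.6 with TMM, DESeq2 size factors, mature or unique reads, no floor, and 0 or 5 reads added. It was 22.8 (19.0 to 27.6) once the 10 most abundant hairpins of each library were kept out of the total, which moves the median log2 ratio of all hairpins from 0.47 to -0.05, and its level was then 8869 larval and 389 adult RPM. With exact reads alone the ratio was 41.4 (10.8 to 353), resting on 42 and 2 reads of the 3' arm. The 5' share was then 0% at both stages. By arm, the exact share was 0% on the 5' arm at both stages and 89.4% and 66.7% on the 3' arm. The larval calls were 28, between 28 and 41 under the other scalings, read classes and floor, 37 with a minimum ratio of 1.5 and 18 with a minimum of 4. No paired analysis was possible because each stage has 1 library, and for the same reason no replicate could be left out. Depth limits the adult 3' arm (3 reads) and other reads (6 reads) most.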

Other observations

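A dominant 5' arm and few reads of the annotated form were also looked for together. Hairpins with a 5' share of at least 90% and an exact share of at most 10% numbered 3 of 89 in the larval library. In the adult library they were 2 of 101, each among hairpins with at least 20 mature reads. mir-282 and mir-283 met the limits in both libraries. The limits were chosen after the values were seen, so that mir-282 met them was fixed beforehand. mir-283 had 615 larval and 913 adult mature reads, 100% of them on the 5' arm at both stages, and exact shares of 5.04% and 3.40%. mir-315 met the limits in the larval library only, with exact shares of 8.26% and 11.7% and 5' shares of 99.7% and 99.3%.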
